A study of Mus musculus with 20 samples.

Results

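The 48 genes described here carry the symbols of orphan and adhesion G protein-coupled receptors and were measured in sorted adipose progenitor cells. They were chosen by symbol (Gpr with a number, Gprc5 or Adgr) and by a mean of at least 5 normalized counts over the 20 libraries. All are called receptors below, though 7 are membrane proteins of organelles or unlike a classical receptor, and some have known ligands. Of 27179 genes in the table, 105 carried such a symbol. The minimum left 48 of them, 32 with a Gpr number, 2 Gprc5 and 14 Adgr genes, and 57 fell below it. Just inside the minimum were Gpr179 with a mean of 5.35 and Adgrl3 with 5.89. Just outside were Adgrv1 with 4.69 and Adgre1 with 4.67. The cells were taken from the inguinal white adipose tissue, a fat pad of the groin, and the mice were male C57BL/6. They were isolated as PDGFRb+ cells and divided by the surface peptidase DPP4, which gave 4 groups of 5 RNA-seq libraries. These were DPP4+ cells from mice held at 6 °C for 24 h, DPP4+ cells from mice at 22 °C, DPP4- cells at 6 °C for 24 h and DPP4- cells at 22 °C. No transgene or drug was named in the labels for any group. The labels did not say whether the 5 libraries of a group came from separate mice. The p-values set a group difference against the spread between these libraries, which may not hold the spread between mice. Each library holds the RNA of many sorted cells, and fewer expressing cells cannot be told apart from less RNA per cell.

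G protein-coupled receptors span the membrane with a bundle of helices and pass an outside signal to heterotrimeric G proteins inside the cell. Members coupled to Gs raise cyclic AMP and members coupled to Gi or Gz lower it, and in fat cells cyclic AMP is the messenger through which noradrenaline acts in the cold. Orphan receptors have no agreed ligand. Adhesion receptors carry long outer domains that bind matrix or neighbouring cells, and most cut themselves at a site close to the membrane, which exposes a tethered agonist.

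Promoter sequences at annotated starts are shown for the receptor that fell most and the receptor that rose most in cold DPP4+ cells. Which start these cells used was not measured, so the windows may not belong to the transcripts counted here. RefSeq windows on GRCm38.p6, from 250 bases before to 50 after an annotated start and 300 bases long, were found for 36 of the 48 receptors. The Gpr176 window lies at chr2:118373370-118373669 on the minus strand. The Gpr35 gene has windows at separate starts on the plus strand, and the one shown, at chr1:92978653-92978952, is the one of them that held a match. Both are written 5′ to 3′ in the direction of the gene, and capitals mark matches to the motifs searched.
Gpr176: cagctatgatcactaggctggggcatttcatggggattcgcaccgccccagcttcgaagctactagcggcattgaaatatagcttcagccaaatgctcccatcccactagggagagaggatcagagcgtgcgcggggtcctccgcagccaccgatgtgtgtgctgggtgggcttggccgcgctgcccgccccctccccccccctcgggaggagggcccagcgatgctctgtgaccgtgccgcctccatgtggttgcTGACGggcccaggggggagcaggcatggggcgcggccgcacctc
Gpr35: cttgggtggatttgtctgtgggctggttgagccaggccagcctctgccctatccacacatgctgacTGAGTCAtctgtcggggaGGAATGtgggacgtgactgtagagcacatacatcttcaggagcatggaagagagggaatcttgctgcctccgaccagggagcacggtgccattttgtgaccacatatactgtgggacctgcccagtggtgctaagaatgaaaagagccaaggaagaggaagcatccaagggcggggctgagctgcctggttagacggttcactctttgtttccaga
The motifs were the core of the cyclic AMP response element, TGACG, the full element TGACGTCA, the AP-1 letters TGANTCA, the TEAD letters GGAATG and the serum response CArG box by name, each on both strands. A full element also holds the core. The capitals are 1 core in the Gpr176 window, and 1 AP-1 match and 1 TEAD match in the Gpr35 window. The core occurred in 31.5% of the 54 windows of these receptors and in 20.8% of all 32851 windows. AP-1 letters occurred in 9.26% of the receptors' windows and 7.81% of all windows, and TEAD letters in 7.41% and 14.7%. The full element and the CArG box were in 0 of the receptors' windows and in 1.79% and 1.63% of all windows. A match is a description of letters and shows no binding.

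At 6 °C depth was 11.8 to 17.5 M reads (1 M is 1e+06) for DPP4+ and 8.49 to 18.8 M for DPP4- libraries, and at 22 °C 15.8 to 17.6 M for DPP4+ and 11.0 to 13.4 M for DPP4- libraries. Normalized totals were unequal between the populations: the DPP4+ libraries summed to 10.2 to 12.1 M, and the DPP4- libraries to 15.4 to 17.3 M. The sort was visible in Dpp4, which averaged 10035 ± 2091 and 8546 ± 1158 normalized counts in DPP4+ cells at 6 °C and 22 °C and 61.3 ± 42.4 and 67.9 ± 21.6 in DPP4- cells (SD, n = 5 each). Pdgfrb averaged 1505, 2942, 4124 and 4126 normalized counts in the same order of groups. Summed markers of granulocytes and mast cells reached 1837 normalized counts in replicate 2 of DPP4- cells at 6 °C and 340 in replicate 3 of DPP4- cells at 22 °C, against 6.73 to 28.3 in the DPP4+ libraries. Without these 2 libraries the comparisons below called 26, 2, 18, 33 and 31 receptors in place of 25, 2, 18, 34 and 32. The strand of counting is not given in the sources used here, and 33 of the 48 receptor genes overlap another annotated gene. Among those named below, Gpr176 overlaps 1700054M17Rik, Gpr35 overlaps 9430060I03Rik, Gprc5b overlaps Iqck, Adgra2 overlaps Brf2, Adgrl1 overlaps Gm10644 and Adgre5 overlaps Ddx39a. Likewise Gpr153 overlaps Hes3, Gpr146 overlaps 3110082I17Rik, Gpr108 overlaps Trip10, Gpr89 overlaps Pdzk1 and Gpr1 overlaps Zdbf2. These are examples, and part of the counts of any overlapping receptor may belong to the neighbour. Gpr137b has a near-identical pseudogene in the table, and its counts are uncertain.

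Adgrd1, an adhesion receptor that signals through Gs and is also called GPR133, stood above every other receptor of the set in all 4 groups. Per kilobase of exon it had 3019.7 and 1812 normalized counts in DPP4+ cells at 6 °C and 22 °C and 958 and 1078 in DPP4- cells. It took 62.0 to 63.6% of the receptor counts of a DPP4+ library at 6 °C, 51.8 to 56.9% at 22 °C, and 38.2 to 49.5% and 44.2 to 49.1% of those of a DPP4- library at 6 °C and 22 °C. All 48 receptors together took 0.321 to 0.380% of the counts of a DPP4+ library at 6 °C, 0.235 to 0.263% at 22 °C, and 0.109 to 0.130% and 0.109 to 0.117% of those of a DPP4- library at 6 °C and 22 °C. The other adhesion receptors by mean level per kilobase were Adgra2, Adgre5, Adgrg2, Adgra3, Adgrl1, Adgrl2, Adgrg6, Adgrf5, Adgrg1, Adgrl4, Adgrb2, Adgrb1 and Adgrl3, in that order. Of the class C orphans, Gprc5b and Gprc5a ranked 3 and 7 of the 48, while Gpr179, a scaffold of retinal bipolar cells, was near the bottom. Proteins of internal membranes (Gpr180, Gpr108, Gpr107, Gpr137, Gpr89, Gpr137b and Gpr155) ranged from 10.4 to 181 normalized counts per kilobase in DPP4+ cells at 6 °C. Gpr153, an orphan and close relative of Gpr162, ranked 2. Other members were Gpr176, Gpr146, Gpr165, Gpr1, Gpr27, Gpr161, Gpr135, Gpr19, Gpr63, Gpr35, Gpr39, Gpr17, Gpr62, Gpr173, Gpr85, Gpr157, Gpr4, Gpr3, Gpr160 and Gpr182. Gpr35, at 31.5 per kilobase in DPP4+ cells at 6 °C, was the one of these whose level in that group exceeded 10 while it was under 2 in every other group.

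**Figure D1:**
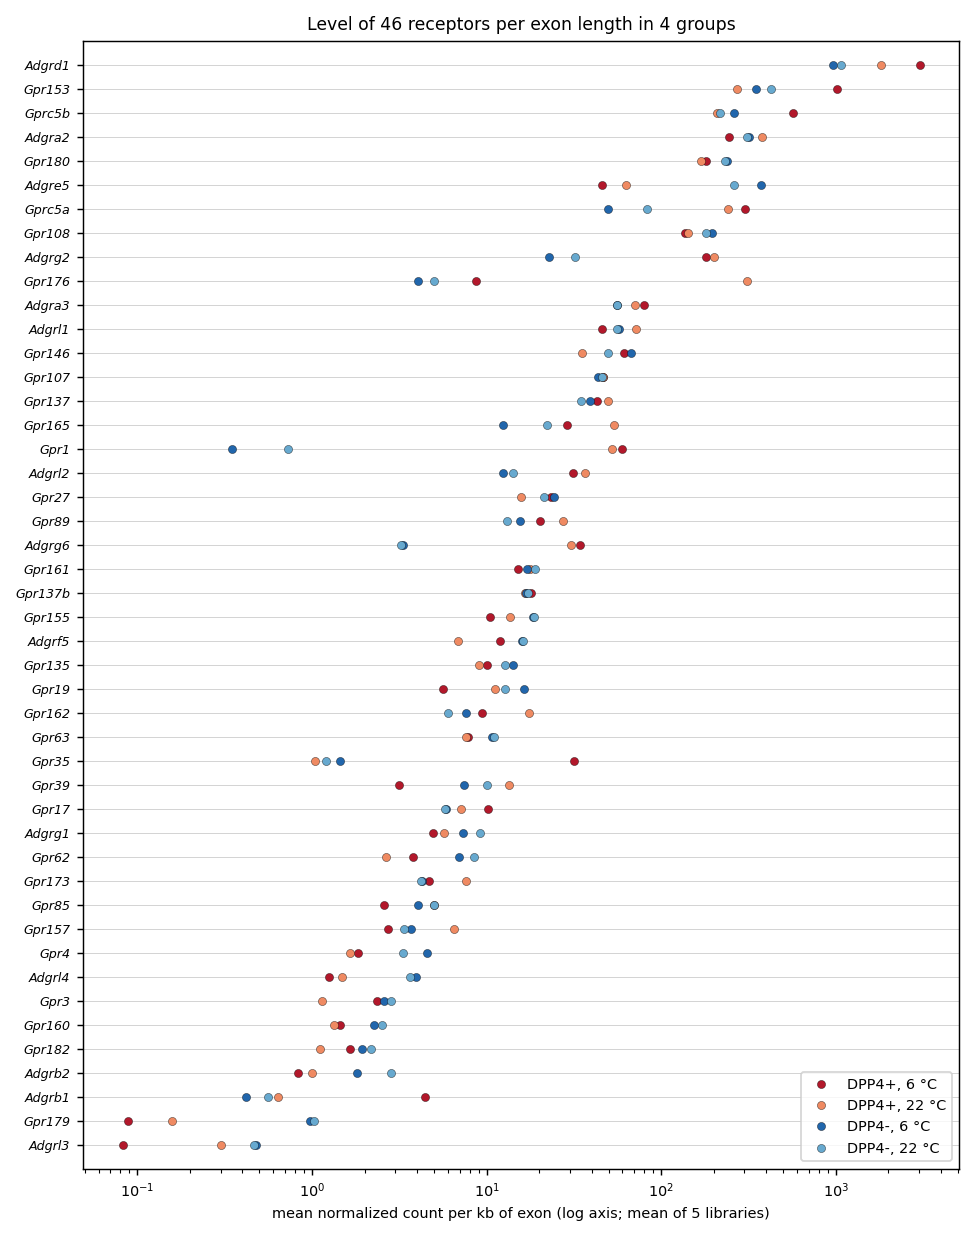
Normalized counts per kilobase of exon for 46 of the 48 receptors on a log axis, 1 point per group mean (n = 5). Adgrd1 leads in all 4 groups (3020, 1812, 958 and 1078 in DPP4+ 6 °C, DPP4+ 22 °C, DPP4- 6 °C and DPP4- 22 °C).

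In DPP4+ cells the cold moved receptors in both directions, with Gpr35 rising most and Gpr176 falling most. At 6 °C against 22 °C, 25 of the 48 differed in DPP4+ cells at an adjusted p under 0.05 (limma on log2(normalized count + 1), Benjamini-Hochberg over the 14146 genes tested), beside 43.8% of all genes tested. Of these, 9 were higher at 6 °C (22.0% of all genes) and 16 lower (21.7% of all genes). Differences of at least 2-fold were called for 9 receptors, against 8.27% of all genes. The libraries of the temperatures did not overlap for 23 receptors, and for 36.8% of all genes. Median log2 differences were -0.04 over the receptors and 0.0006 over all genes. The median size of a difference was 0.48 over the receptors and 0.26 over all genes. In DPP4- cells, where few receptors were called, it was likewise larger over the receptors, 0.20 against 0.13. The part of low counts in these sizes was not tested. Pericyte and smooth muscle markers also moved in this comparison: of 11 tested, 2 were higher and 5 lower, and their sum was 4262 to 7130.1 normalized counts at 6 °C and 9354 to 12123 at 22 °C. Their part in the receptor values was not tested.

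Adhesion receptors made up 4 of the 9 rises. Adgrd1 (gene ID 243277, chromosome 5, 129096750 to 129204599, RefSeq on GRCm38 here and below) had 25767, 25256, 25067, 24818 and 24727 normalized counts in DPP4+ libraries at 6 °C, against 13097, 13666, 17059, 14935 and 16610 at 22 °C. In DPP4- libraries it had 9267, 8374, 6539, 7709.7 and 7979 at 6 °C, against 9222, 8626, 8075, 9029.8 and 9874 at 22 °C. Every cold DPP4+ library lay above every other library, and the cold effect in DPP4+ cells was 1.67-fold by the ratio of means (log2 difference 0.74, SE 0.09, adjusted p = 1.40e-07). Adgrf5 (gene ID 224792, chromosome 17, 43360329 to 43459557), known as GPR116 and as a brake on surfactant in the lung, had 80.2, 95.3, 120.4, 114 and 130.1 in DPP4+ libraries at 6 °C, against 52.2, 55.7, 86.1, 54.5 and 61.8 at 22 °C. Its DPP4- libraries had 92.5, 173, 153, 209 and 89.7 at 6 °C, against 103, 164, 134, 159.7 and 168 at 22 °C. The temperatures overlapped in both populations, since 1 DPP4+ library at 22 °C stood at 86.1, and the call in DPP4+ cells had a log2 difference of 0.79, SE 0.21 and adjusted p = 0.00411 (limma). Adgrb1, the engulfment receptor BAI1 that binds phosphatidylserine, had low counts: it averaged 32.3 ± 10.2 in DPP4+ cells at 6 °C and 4.64 ± 3.14 in DPP4+ cells at 22 °C, with 3.03 ± 2.16 and 4.05 ± 3.02 in DPP4- cells at 6 °C and 22 °C (SD, n = 5 each). Its DPP4+ temperatures did not overlap (log2 difference 2.69, SE 0.55, adjusted p = 0.00033). Adgra3 rose by 0.17 on the log2 scale (adjusted p = 0.0163, limma), a call lost without replicate 5 of DPP4+ cells at 6 °C (lowest log2 difference without 1 library 0.14, adjusted p = 0.0548) and with library totals set equal (0.13, adjusted p = 0.0883).

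The largest rise in cold DPP4+ cells was that of Gpr35 (gene ID 64095, chromosome 1, 92948052 to 92986391), a Gi-coupled receptor for kynurenic acid. It had 165, 158, 149, 190.2 and 101 normalized counts in DPP4+ libraries at 6 °C, against 2.49, 5.24, 5.07, 8.14 and 4.36 at 22 °C. DPP4- libraries had 5.36, 9.54, 8.098, 5.65 and 6.58 at 6 °C, against 10.8, 1.501, 7.56, 1.54 and 7.72 at 22 °C. The receptor was near the bottom of the counts in 3 groups and at 101 or more in cold DPP4+ cells, 30.1-fold higher by the ratio of means (log2 difference 4.70, SE 0.37, adjusted p = 1.78e-10). Leaving out 1 library at a time gave log2 differences of 4.52 to 4.87. Gpr17, listed with Gpr35 as a receptor for lipids and metabolites, had a log2 difference of 0.54 in DPP4+ cells, which missed the threshold (adjusted p = 0.0508, limma). It passed under 15 of 32 other settings, edgeR and DESeq2 among them.

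Among orphans, Gpr153 (gene ID 100129, chromosome 4, 152274106 to 152285342) had 4603, 3977, 4083, 4197 and 2989 normalized counts in DPP4+ libraries at 6 °C, against 969, 1059, 1198, 1012 and 1079.7 at 22 °C. In DPP4- libraries the values were 1196, 1123, 1285, 1434 and 1752 at 6 °C, against 1672, 1641, 1601, 1603 and 1763 at 22 °C. Cold DPP4+ cells were 3.73-fold higher (log2 difference 1.89, SE 0.10, adjusted p = 1.32e-12), and their lowest library, at 2989, lay above every other library of the study. Gprc5b (gene ID 64297, chromosome 7, 118972040 to 118995211), a class C orphan related to a gene induced by retinoic acid, had 2691, 2651, 2768, 2578 and 2510.0 in DPP4+ libraries at 6 °C, against 851, 826, 1117, 963 and 1069.5 at 22 °C. Its DPP4- libraries had 1165, 1196, 1151, 1114 and 1402 at 6 °C, against 967, 989, 959, 1079 and 1067 at 22 °C. The temperatures did not overlap in either population, with 2.73-fold higher means in cold DPP4+ cells (log2 difference 1.46, SE 0.08, adjusted p = 1.28e-13) and 1.19-fold in cold DPP4- cells, a difference that missed the threshold (adjusted p = 0.058). The DPP4- difference passed under 7 of 32 other settings, among them totals set equal (0.35, adjusted p = 0.00732, limma), quantile normalization and DESeq2. Gpr146 (gene ID 80290, chromosome 5, 139377697 to 139396415), which acts on cholesterol levels through the liver, had 398, 414, 379, 416 and 469 in DPP4+ libraries at 6 °C, against 211, 196, 255, 273 and 263 at 22 °C. DPP4- libraries held 409, 436, 498, 457 and 472 at 6 °C, against 385, 272, 346, 370.0 and 312 at 22 °C. It was higher at 6 °C in all 5 libraries of both populations (log2 difference 0.80, SE 0.10, adjusted p = 3.34e-07 in DPP4+ cells). Gpr27, of the SREB family of brain receptors, was also called higher, by 0.55 on the log2 scale (adjusted p = 0.0124, limma).

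The largest fall was that of Gpr176 (gene ID 381413, chromosome 2, 118277096 to 118374549), a Gz-coupled orphan of the clock neurons of the suprachiasmatic nucleus. Its counts were 40.5, 33.5, 33.98, 37.5 and 23.2 in DPP4+ libraries at 6 °C, against 1387, 1279.7, 1062, 1226 and 1127 at 22 °C. DPP4- libraries held 4.02, 19.1, 18.9, 28.2 and 8.23 at 6 °C, against 4.05, 16.5, 28.97, 19.96 and 28.3 at 22 °C. Thus 1 group of the 4 held it at 1062 or more and the other 3 stood between 4.02 and 40.5. The cold effect in DPP4+ cells (log2 difference -5.15, SE 0.45, adjusted p = 2.71e-08) was -5.22 to -5.02 on the log2 scale with 1 library left out at a time. Ordered by mean level, the groups ran DPP4+ 22 °C, DPP4+ 6 °C, DPP4- 22 °C and DPP4- 6 °C, and the DPP4- temperatures overlapped. Gnaz, the Gz subunit itself, averaged 15.5 ± 6.998 in DPP4+ cells at 6 °C and 10.5 ± 3.57 at 22 °C, with 8.87 ± 3.31 and 6.99 ± 3.12 in DPP4- cells at 6 °C and 22 °C (SD, n = 5 each), and it was called in 0 of the 5 contrasts. Replicate 5 of cold DPP4+ cells was the lowest library of its group for Gpr176, Gpr35, Gpr153, Gprc5b and Adgrb1.

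Other orphans fell by smaller amounts. Gpr165 (gene ID 76206, chromosome X, 96713468 to 96719388), an orphan, had 62.96, 97.3, 202, 129 and 165 normalized counts in DPP4+ libraries at 6 °C, against 232, 206, 307, 213 and 261 at 22 °C. Its DPP4- values were 52.3, 50.4, 55.3, 65.9 and 56.8 at 6 °C, against 173, 58.5, 90.7, 85.97 and 95.2 at 22 °C. The fall in DPP4+ cells was without overlap (log2 difference -0.98, SE 0.26, adjusted p = 0.00472), while in DPP4- cells a log2 difference of -0.75 missed the threshold (adjusted p = 0.109). Gpr162 (gene ID 14788, chromosome 6, 124858444 to 124864195), the relative of Gpr153, had 42.3, 32.2, 33.98, 40.9 and 31.4 in DPP4+ libraries at 6 °C, against 77.7, 62.2, 63.7, 68.9 and 64.7 at 22 °C. Its DPP4- libraries had 22.8, 25.9, 31.04, 26.4 and 39.5 at 6 °C, against 25.7, 22.5, 25.2, 21.5 and 20.6 at 22 °C. The pair of relatives thus moved in opposite directions in DPP4+ cells, Gpr153 up and Gpr162 down (log2 difference -0.89, SE 0.15, adjusted p = 4.31e-05). At lower counts, Gpr39, a zinc-sensing receptor, averaged 9.46 ± 3.69 in DPP4+ cells at 6 °C and 40.6 ± 5.89 at 22 °C (log2 difference -2.08, SE 0.26, adjusted p = 3.84e-07). Gpr157, Gpr19, Gpr85 and Gpr173, the last pair of the SREB family with Gpr27, were called lower, with log2 differences of -1.22, -0.98, -0.91 and -0.67. The Gpr85 call was lost without replicate 4 of DPP4+ cells at 6 °C or replicate 3 at 22 °C (highest adjusted p = 0.0527, limma).

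Adhesion receptors also made up 5 of the 16 falls. Adgrl1 (gene ID 330814, chromosome 8, 83900098 to 83941954), a latrophilin that binds teneurins and FLRT proteins, had 461, 405, 434, 392 and 270.0 normalized counts in DPP4+ libraries at 6 °C, against 711, 634, 558, 629 and 545 at 22 °C. DPP4- libraries held 424, 419, 553, 542 and 537 at 6 °C, against 338, 498, 501, 529.6 and 523 at 22 °C. The DPP4+ temperatures did not overlap (log2 difference -0.66, SE 0.14, adjusted p = 0.00052). Of the 4 genes with an Adgrl symbol, Adgrl2 and Adgrl3 fell too (log2 differences -0.25 and -1.31), and Adgrl4 did not pass (-0.11, adjusted p = 0.838, limma). Adgrl3 averaged only 1.47 and 5.37 normalized counts in DPP4+ cells at 6 °C and 22 °C, so its fitted value depends on the added count of 1. The Adgrl2 call rests on few libraries: it was lost without any 1 of 4 (replicate 5 at 6 °C, or replicate 1, 2 or 5 at 22 °C, all DPP4+), with log2 differences of -0.30 to -0.14 and a highest adjusted p of 0.143. Adgra2 (gene ID 78560, chromosome 8, 27085520 to 27123436), a coreceptor with Reck for Wnt7 in brain vessels, had 1412, 1418, 1352, 1345 and 1536 in DPP4+ libraries at 6 °C, against 2198, 2214, 2103, 2173 and 2215 at 22 °C. In DPP4- libraries it had 1732, 1586, 1702, 2119 and 2016 at 6 °C, against 1635, 2034, 1815, 1851 and 1627 at 22 °C. Each cold DPP4+ library lay under each DPP4+ library at 22 °C (log2 difference -0.63, SE 0.07, adjusted p = 1.50e-07). Adgre5 (gene ID 26364, chromosome 8, 83723245 to 83741311), the leukocyte antigen CD97 that binds CD55, had 218, 171, 169.9, 188 and 114 in DPP4+ libraries at 6 °C, against 248, 255, 229, 224 and 223 at 22 °C. DPP4- cells had 1047, 1199.8, 1574, 1238 and 1967 at 6 °C, against 848, 1052, 998, 1070.0 and 959 at 22 °C. The fall in DPP4+ cells was again without overlap (log2 difference -0.48, SE 0.15, adjusted p = 0.0143), and the DPP4- temperatures overlapped.

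Membrane proteins of organelles contributed 2 of the 16 falls. Gpr89 (gene ID 67549, chromosome 3, 96868298 to 96905346), a regulator of Golgi pH, had 107, 107, 114, 104 and 109 normalized counts in DPP4+ libraries at 6 °C, against 161, 153, 153, 139.7 and 131 at 22 °C. DPP4- libraries had 84.5, 95.4, 72.9, 80.9 and 85.6 at 6 °C, against 51.3, 76.6, 76.8, 69.1 and 75.9 at 22 °C. The DPP4+ temperatures did not overlap (log2 difference -0.44, SE 0.11, adjusted p = 0.00191). Gpr155 (gene ID 68526, chromosome 2, 73341506 to 73386521), a lysosomal cholesterol sensor, had 47.4, 76.3, 68.9, 66.5 and 89.7 in DPP4+ libraries at 6 °C, against 82.7, 83.2, 83.9, 92.7 and 115 at 22 °C. Its DPP4- counts were 119, 112, 116, 119 and 148 at 6 °C, against 123, 116, 134, 130.5 and 122 at 22 °C. The Gpr155 call (log2 difference -0.40, SE 0.13, adjusted p = 0.0158) was lost without replicate 1 at 6 °C or replicate 5 at 22 °C of DPP4+ cells (log2 differences -0.50 to -0.27, highest adjusted p = 0.0675). Gpr107, Gpr108, Gpr137, Gpr137b and Gpr180 were not called.

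**Figure D2:**
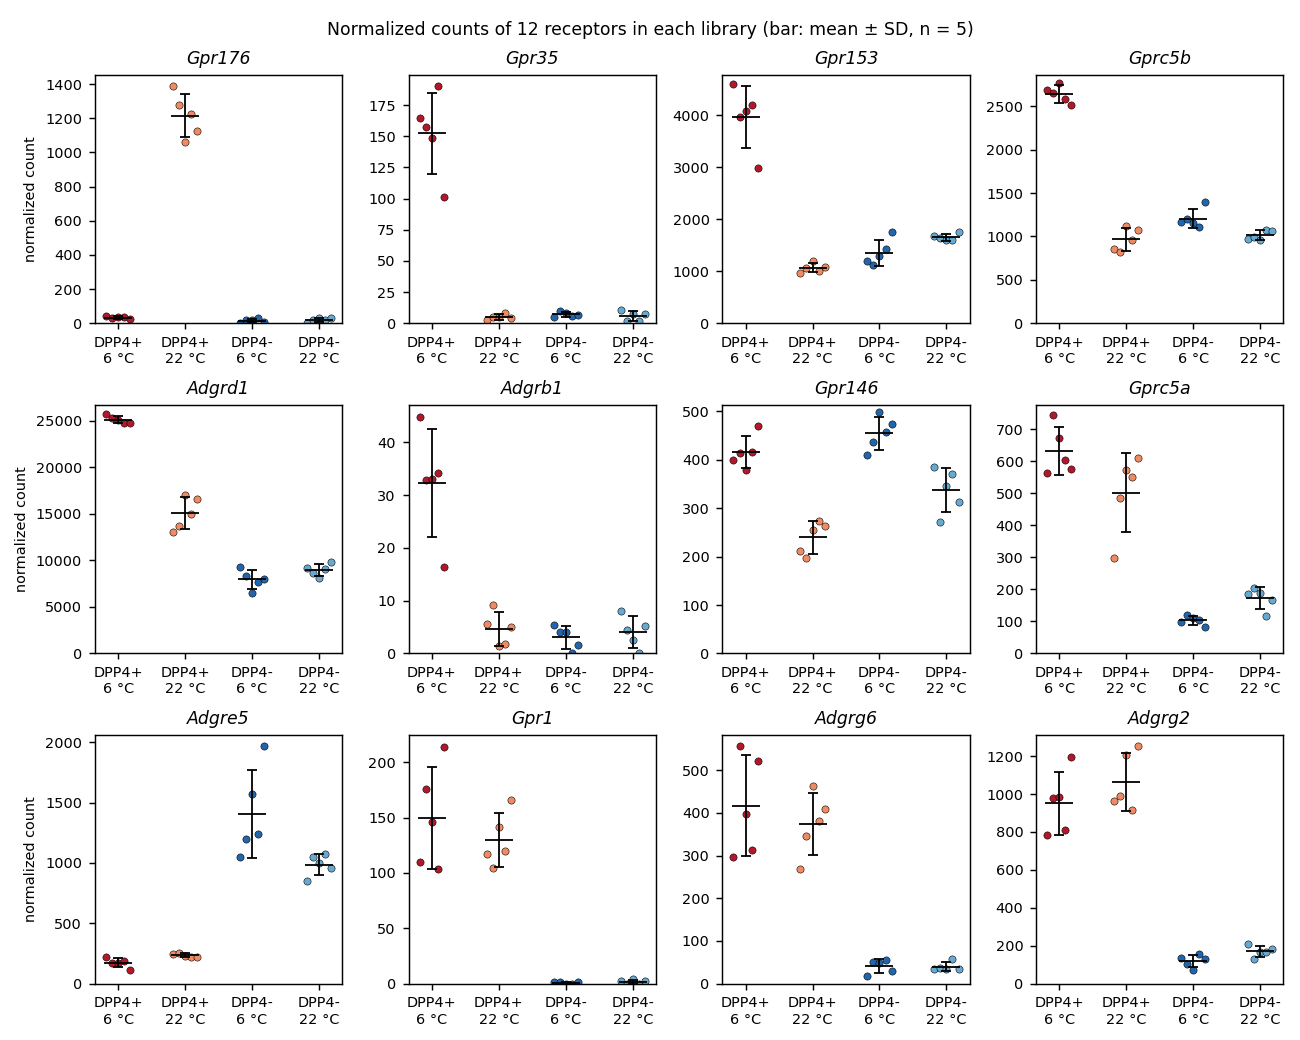
Normalized counts of 12 receptors in each library (points, linear axis from 0), with group means and SD (bars, n = 5), for DPP4+ 6 °C, DPP4+ 22 °C, DPP4- 6 °C and DPP4- 22 °C. Gpr176 stands between 1062 and 1387 in DPP4+ cells at 22 °C and at 40.5 or less elsewhere, and Gpr35 between 101 and 190 in cold DPP4+ cells and at 10.8 or less elsewhere.

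Cold gave few calls in DPP4- cells. There, 2 of the 48 receptors passed at 6 °C against 22 °C (limma, adjusted p under 0.05), beside 4.72% of all genes tested. Of these 1 was higher, beside 1.79% of all genes, and 1 lower, beside 2.93%. With library totals set equal it was 3 higher and 1 lower. In the main limma fit 8 receptors had an unadjusted p under 0.05. The share of all genes at that level was not counted, so no excess can be read from it. Gpr146 was the receptor higher at 6 °C (ratio of means 1.35, log2 difference 0.44, SE 0.10, adjusted p = 0.00987), and so it was called in both populations, as were 2.71% of all genes. The receptor lower at 6 °C was Gprc5a (gene ID 232431, chromosome 6, 135065662 to 135084709), a class C orphan induced by retinoic acid. Its DPP4- libraries had 99.2, 121, 109, 104 and 82.3 normalized counts at 6 °C, against 186, 206, 189, 118 and 167 at 22 °C (log2 difference -0.73, SE 0.17, adjusted p = 0.0153). DPP4+ libraries stood at 565, 744, 672, 605 and 577 at 6 °C, against 297, 484, 572, 551 and 609 at 22 °C, where a log2 difference of 0.37 missed the threshold (adjusted p = 0.084). The temperatures overlapped in both populations for Gprc5a. Only Gprc5b and Gpr146, of the 48, had DPP4- temperatures without overlap, and 4.61% of all genes did. Mature adipocyte markers were higher in cold DPP4- cells for 4 of 9 tested and lower for 0, with sums of 7382 to 12301 at 6 °C and 3318 to 6958 at 22 °C. Their part in these receptor values was not tested.

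The cold effect itself differed between the populations for 18 receptors (test of DPP4+ minus DPP4- effects, limma), beside 31.2% of all genes. It was higher in DPP4+ cells for 8 (15.7% of all genes) and lower for 10 (15.5%), with at least 2-fold for 10 (9.06%). With library totals set equal the split was 7 higher and 15 lower, and the all-gene median was -0.14. Gpr35 had the largest positive difference, 4.21 on the log2 scale (adjusted p = 9.17e-07). It was followed by Adgrb1 at 2.96, Gpr153 at 2.19, Gprc5b at 1.21, Gprc5a at 1.10 and Adgrd1 at 0.92. The Gprc5a difference joined a value of 0.37 in DPP4+ cells to -0.73 in DPP4- cells. Gpr176 had the largest negative difference, -4.83 (adjusted p = 1.19e-05), and then came Gpr39 at -1.61, Gpr157 at -1.34, Gpr19 at -1.33, Gpr162 at -1.19 and Adgre5 at -0.96. Calls close to the threshold were those of Adgrf5 and Gpr146. They were lost without any 1 of 10 and 13 libraries of both populations, with log2 differences of 0.72 to 1.03 and 0.29 to 0.43 and highest adjusted p-values of 0.0575 and 0.109 (limma). With totals set equal the Gpr146 difference was 0.22 (adjusted p = 0.234). Of the 18 calls, 15 passed without each library in turn.

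**Figure D3:**
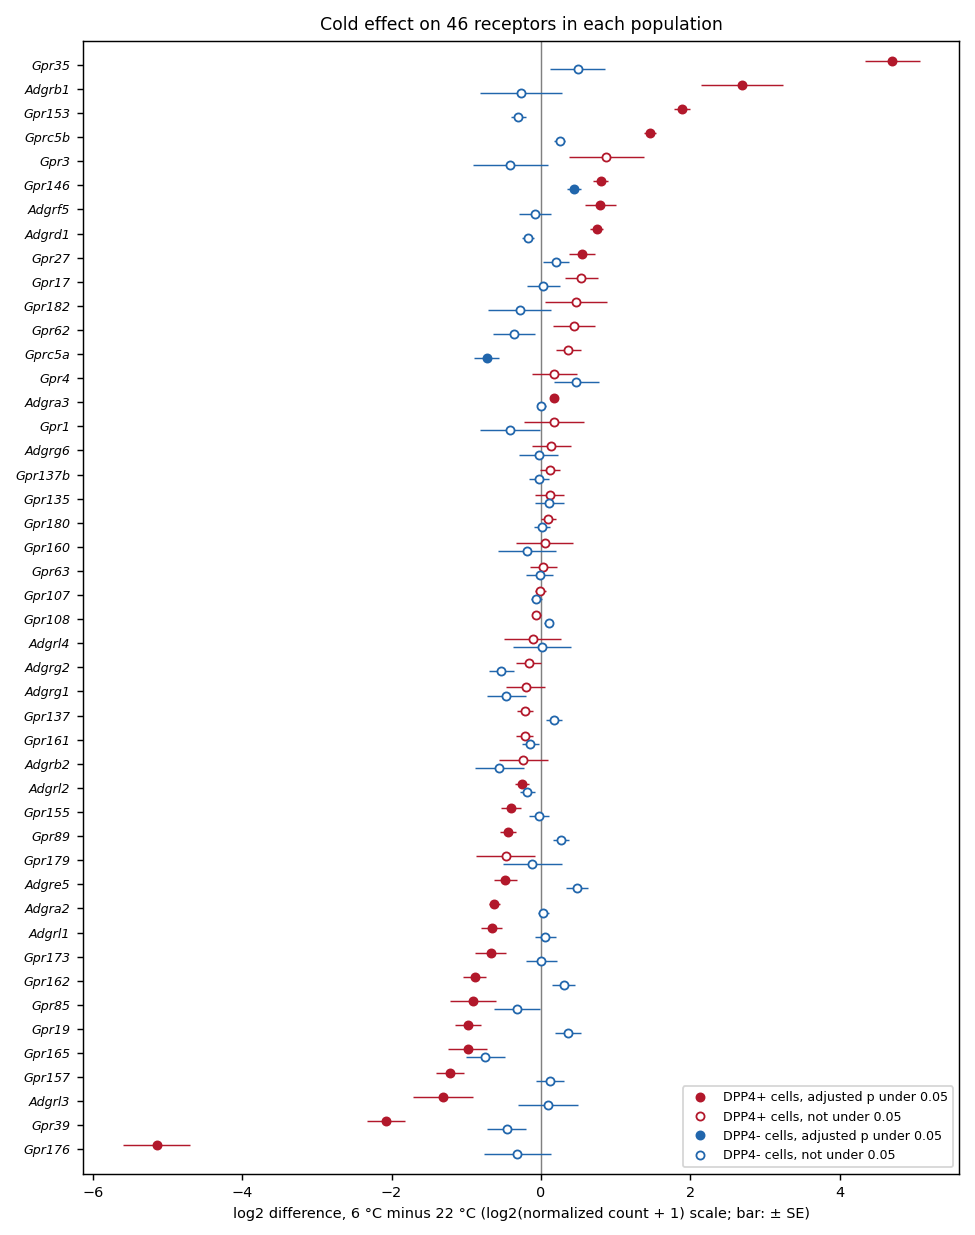
Log2 difference between 6 °C and 22 °C for 46 of the 48 receptors in DPP4+ cells (red) and DPP4- cells (blue), with bars of ± SE, filled where the adjusted p was under 0.05. The red points spread from -5.15 (Gpr176) to 4.70 (Gpr35), and only Gpr146 and Gprc5a are filled in blue.

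At 22 °C, 34 of the 48 receptors differed between DPP4+ and DPP4- cells (limma, adjusted p under 0.05), which is near the 73.4% of all genes tested. Of these 17 were higher in DPP4+ cells (37.2% of all genes) and 17 lower (36.2%). Differences of at least 2-fold were called for 17 receptors (28.6% of all genes), and the libraries of the populations did not overlap for 28 (62.7% of all genes). These directions rest on the deposited scaling. Scaling every library to one total shifted the all-gene median log2 difference to 0.62 and gave 26 receptors higher and 6 lower. Of the 34 calls, 7 then changed sign and 10 were lost. All 12 tissue dissociation genes tested were lower in DPP4+ cells, with sums of 45618 to 58276 normalized counts in DPP4+ and 189160 to 259390 in DPP4- cells at 22 °C. Their part in the population differences was not tested.

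Receptors that marked DPP4+ cells at both temperatures included a chemerin receptor and the adhesion receptors Adgrg6 and Adgrg2. Gpr1 (gene ID 241070, chromosome 1, 63182571 to 63223278), a receptor for chemerin, had 109.5, 176, 146, 103 and 214 normalized counts in DPP4+ libraries and 1.34, 1.36, 0, 0 and 1.65 in DPP4- libraries at 6 °C. At 22 °C it had 118, 105, 141, 119.6 and 166 in DPP4+ and 2.701, 0, 3.78, 0 and 2.57 in DPP4- libraries. No DPP4- library reached 5 counts and no DPP4+ library was under 100 (log2 difference 5.82, SE 0.40, adjusted p = 7.95e-12 at 22 °C). Because the DPP4- counts are near 0, this fitted difference depends on the added count of 1. Adgrg6 (gene ID 215798, chromosome 10, 14402583 to 14545723), which binds collagen IV and laminin and drives Schwann cell myelination, had 296, 556, 398, 313 and 521 in DPP4+ and 18.8, 51.8, 48.6, 56.5 and 28.8 in DPP4- libraries at 6 °C. Its counts at 22 °C were 269, 345, 464, 380.2 and 410.1 in DPP4+ and 35.1, 36.03, 35.3, 58.3 and 33.4 in DPP4- libraries, 9.43-fold apart by means (log2 difference 3.21, SE 0.26, adjusted p = 1.02e-09). Schwann cell markers ran the other way in sum, 236 to 315 in DPP4+ and 396 to 737 in DPP4- cells at 22 °C, with 2 of 6 tested higher and 4 lower in DPP4+ cells. Adgrg2 (gene ID 237175, chromosome X, 160390318 to 160498076), an adhesion receptor of the epididymis, had 784, 977, 986, 812 and 1194 in DPP4+ and 137, 106, 72.9, 154 and 129 in DPP4- libraries at 6 °C. At 22 °C the counts were 964, 988, 1204, 914 and 1253 in DPP4+ and 208, 129, 165, 167 and 183 in DPP4- libraries (log2 difference 2.64, SE 0.17, adjusted p = 2.28e-11). The populations did not overlap at either temperature for any of these receptors, nor for Gprc5a and Adgrl2, whose log2 differences at 22 °C were 1.51 and 1.38.

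Gpr176 had the largest population difference at 22 °C, 62.2-fold by means (log2 difference 6.12, SE 0.45, adjusted p = 4.75e-10). Gpr162, Gpr165, Gpr89, Gpr157 and Gpr173 were also higher in DPP4+ cells at 22 °C, by 1.51, 1.34, 1.08, 0.92 and 0.84 on the log2 scale. All of these were among the receptors that fell in cold DPP4+ cells, and the comparisons share the DPP4+ libraries at 22 °C. Adgra2, Adgra3, Adgrl1, Adgrd1 and Gpr137 were also called higher. The Adgrl1 call was lost without replicate 1 of either population at 22 °C (log2 differences 0.25 to 0.42, highest adjusted p = 0.0689, limma) and with a block on temperature and replicate number (adjusted p = 0.0518).

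Lower in DPP4+ cells stood Adgre5, with values given above and 4.18-fold lower means at 22 °C (log2 difference -2.06, SE 0.15, adjusted p = 1.40e-10) and 8.16-fold lower at 6 °C (log2 difference -3.01, SE 0.15, adjusted p = 2.62e-13). Macrophage and monocyte markers summed to 184 to 271 in DPP4+ and 190.1 to 646 in DPP4- cells at 6 °C, and to 170.1 to 205 and 229 to 287 at 22 °C. Lymphocyte markers summed to 2.99 to 10.5 in DPP4+ cells at 6 °C, where Cd2, Cd3d, Cd3e, Cd3g and Nkg7 were at 0, and to 17.3 to 106 in DPP4- cells. Their part in the Adgre5 values was not tested. Cd55, its binding partner, ran opposite, with means at 6 °C of 9489 in DPP4+ and 643 in DPP4- cells, and at 22 °C of 4838 in DPP4+ and 812 in DPP4- cells. Adgrl4, a receptor of endothelium, and Gpr4, a proton sensor of vessels, were lower too. Log2 differences at 22 °C and 6 °C were -1.17 and -1.29 for Adgrl4 and -0.82 and -1.11 for Gpr4. With totals set equal both calls at 22 °C were lost, at -0.62 for Adgrl4 (adjusted p = 0.126) and -0.29 for Gpr4 (adjusted p = 0.379), while both at 6 °C passed. The Gpr4 call at 22 °C was also lost without replicate 2 or 4 of DPP4- cells (highest adjusted p = 0.0586, limma). Of 12 endothelial markers, DPP4+ cells had 1 higher and 7 lower at 22 °C and 3 higher and 8 lower at 6 °C, with sums of 2696 to 3411 in DPP4+ and 1125 to 1551 in DPP4- cells at 22 °C. Their part in these values was not tested.

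Apart from Gpr89 (log2 difference 1.08 at 22 °C), the organelle proteins called between the populations differed by less than 1 on the log2 scale. Gpr180 (gene ID 58245, chromosome 14, 118137105 to 118164232), an endosomal or surface protein without a settled receptor role, had 287, 341, 321, 315 and 322 normalized counts in DPP4+ and 348, 486, 486, 421 and 448 in DPP4- libraries at 22 °C. At 6 °C it had 342, 325, 329, 335 and 365 in DPP4+ and 353, 424, 497, 388 and 561 in DPP4- libraries. The lower level in DPP4+ cells (log2 difference -0.45, SE 0.10, adjusted p = 0.000319 at 22 °C) turned to 0.16 with library totals set equal, and the difference at 6 °C to 0.10. Gpr108 (gene ID 78308, chromosome 17, 57234914 to 57248743), a Golgi protein, had 416, 409, 407, 417 and 401 in DPP4+ and 517, 497, 542, 497 and 529.8 in DPP4- libraries at 22 °C. Its counts at 6 °C were 385, 381, 384, 386 and 429 in DPP4+ and 579, 529, 559, 495 and 619 in DPP4- libraries. It was lower in DPP4+ cells without overlap at both temperatures on the deposited scale (log2 difference -0.33 at 22 °C; log2 difference -0.50, SE 0.06, adjusted p = 5.10e-08 at 6 °C). With totals set equal it was higher in DPP4+ cells at 22 °C (0.28, adjusted p = 0.000643) and not called at 6 °C (-0.03), so its direction depends on the scaling. Gpr155 was lower at both temperatures (-0.46 at 22 °C and -0.83 at 6 °C), and the 22 °C value became 0.15 with totals set equal. Gpr146 was lower in DPP4+ cells at 22 °C (-0.49, but 0.12 with totals set equal). At 22 °C Adgrf5, Adgrb2, Gpr62 and Gpr179 were lower in DPP4+ cells, with log2 differences of -1.22, -1.33, -1.50 and -2.04. The calls at 22 °C of Gpr135, Gpr63, Gpr27 and Adgrg1 were lost without any 1 of 6, 1, 12 and 3 libraries, with log2 differences of -0.52 to -0.41, -0.61 to -0.38, -0.47 to -0.24 and -0.80 to -0.60; for Gpr63 this was replicate 5 of DPP4- cells, and for Adgrg1 replicate 1 of DPP4+ or 2 or 5 of DPP4- cells. With totals set equal these 4 calls were lost too, and the values became 0.13, 0.09, 0.21 and -0.08 in the same order. The Gpr27 call was also lost with either block on replicate number (adjusted p = 0.0651 with temperature and number).

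At 6 °C, 32 of the 48 receptors differed between DPP4+ and DPP4- cells (limma, adjusted p under 0.05), beside 72.6% of all genes. Of these 16 were higher (36.6% of all genes) and 16 lower (36.0%), with at least 2-fold for 20 (27.6%) and no overlap for 23 (55.2%). Scaling to one total shifted the all-gene median to 0.47, and the split became 24 higher and 8 lower. Of the 32 calls, 4 then changed sign and 8 were lost. Gpr35 and Adgrb1 were higher in DPP4+ cells at 6 °C by 4.25 and 3.24 on the log2 scale, after differences at 22 °C of 0.04 and 0.28 that missed the threshold (adjusted p = 0.922 and 0.655). Gpr176, at 2.15-fold by means, remained called (log2 difference 1.29, SE 0.45, adjusted p = 0.016), but not without replicate 1 of DPP4- cells at 6 °C (log2 difference 0.92, adjusted p = 0.0529). Gpr19, Gpr39 and Adgrl3 were lower in DPP4+ cells at 6 °C, with log2 differences of -1.50, -1.20 and -1.83, and were not called at 22 °C. The Adgrl3 value is between means of 1.47 in DPP4+ and 8.47 in DPP4- cells, near the bottom of the counts. The calls of Gpr135, Gpr63, Gpr62 and Adgrl1 at 6 °C were lost without any 1 of 6, 2, 7 and 4 libraries (highest adjusted p = 0.142, 0.0897, 0.0907 and 0.107), with log2 differences of -0.62 to -0.32, -0.51 to -0.36, -0.99 to -0.56 and -0.41 to -0.22. For Gpr63 these were replicate 1 of DPP4+ and 3 of DPP4- cells, and for Adgrl1 replicate 5 of DPP4+ and 3, 4 and 5 of DPP4- cells, all at 6 °C. A block on temperature and replicate number also ended the calls of Gpr63, Gpr62 and Adgrl1 (adjusted p = 0.0527, 0.0558 and 0.0707, limma). Totals set equal ended all 4, with log2 differences of -0.0049 for Gpr135, 0.0035 for Gpr63, -0.27 for Gpr62 and 0.12 for Adgrl1.

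Between temperatures, 25 receptors were called at both (59.6% of all genes), and 3 of these changed direction (3.37% of all genes). Gpr153 was lower in DPP4+ than DPP4- cells at 22 °C (-0.64, -0.03 with totals set equal) and higher at 6 °C (1.55). Adgra2 and Adgrl1 were higher in DPP4+ cells at 22 °C, by 0.29 and 0.38, and lower at 6 °C (log2 differences -0.37 and -0.35). The values at 6 °C of the last pair became 0.10 and 0.12 with totals set equal, so their direction at 6 °C depends on the scaling. Under that scaling the Gpr153 call at 22 °C was lost (adjusted p = 0.823, limma), so its change of direction depends on the scaling as well.

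**Figure D4:**
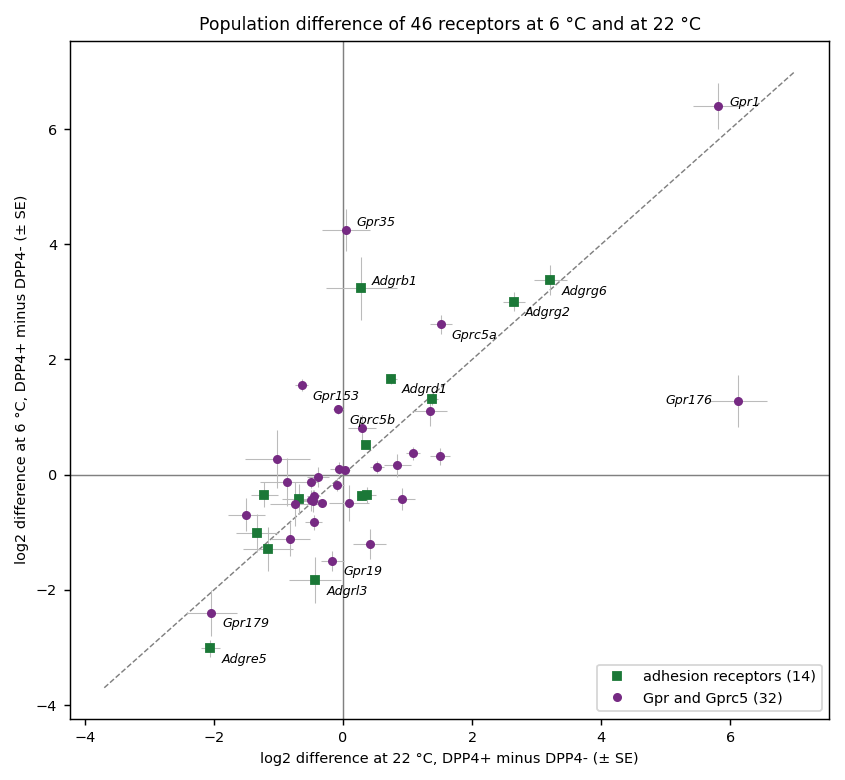
Log2 difference between DPP4+ and DPP4- cells for 46 of the 48 receptors (bars ± SE), at 22 °C on the x axis and at 6 °C on the y axis, with the diagonal of equal values. Gpr1 and Adgrg6 lie far up the diagonal (5.82 and 6.41, 3.21 and 3.38), Gpr176 lies below it (6.12 and 1.29) and Gpr35 above it (0.04 and 4.25).

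Grouped by family, calls fell in both directions. Of 14 Adgr genes, 4 were higher and 5 lower in cold DPP4+ cells, with a median log2 difference of -0.19. Of 34 Gpr and Gprc5 genes 5 were higher and 11 lower, with a median of 0.04. Over all genes tested, 22.0% were higher and 21.7% lower. Among 18 class A orphans or receptors of other kinds, 3 were higher and 9 lower. In DPP4- cells 0 of the Adgr genes and 2 of the Gpr and Gprc5 genes passed, beside 4.72% of all genes. These shares were not compared by a test.

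Of 16 ligands and partners of adhesion receptors tested, 4 were higher and 2 lower in cold DPP4+ cells, beside 22.0% and 21.7% of all genes, so their share called did not exceed that of genes at large. Tgm2, a transglutaminase that binds ADGRG1, averaged 680.0 ± 59.04 at 6 °C and 302 ± 27.5 at 22 °C in DPP4+ cells (log2 difference 1.17, SE 0.09, adjusted p = 1.06e-10). Col4a1, a collagen IV chain bound by ADGRG6, averaged 18082 ± 1302 at 6 °C and 11009 ± 523 at 22 °C in DPP4+ cells (log2 difference 0.71, SE 0.08, adjusted p = 1.78e-07), while DPP4- cells had 144840 and 172400. Cd55 averaged 9489 ± 901 at 6 °C and 4838 ± 851 at 22 °C in DPP4+ cells (log2 difference 0.98, SE 0.12, adjusted p = 1.34e-06). Flrt1, a ligand of latrophilins, fell (log2 difference -2.10, adjusted p = 3.78e-05, limma). In DPP4- cells 0 partners were higher and 2 lower, Lama2 (-0.43) and Col3a1 (-0.57), a laminin and a collagen chain, beside 4.72% of all genes called.

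G protein subunits carry the signal onward. In cold DPP4+ cells 3 of 13 alpha subunits tested were called, beside 43.8% of all genes: Gnai3 and Gnai1 were higher, by 0.28 and 0.38, and Gnai2 was lower (log2 difference -0.26), all inhibitory subunits. In DPP4- cells 1 alpha subunit, Gnao1, was lower (-0.51, adjusted p = 0.0272, limma), beside 2.93% of all genes. Between populations at 22 °C, DPP4+ cells had 2 alpha subunits higher and 8 lower, beside 37.2% and 36.2% of all genes, with Gnao1 at 37.1 in DPP4+ and 439 in DPP4- cells. Of 13 beta and gamma subunits, 2 were higher and 3 lower in cold DPP4+ cells, again beside 43.8% called of all genes. The smallest p-values were those of Gnb4 (log2 difference -1.16) and Gng12 (0.45), and the largest fall was that of Gng8 (-1.54, adjusted p = 6.72e-05, limma). Gng4 averaged 1304 at 6 °C and 735 at 22 °C in DPP4+ cells, against 109.9 and 167 in DPP4- cells, and its cold effects differed in sign (0.84 and -0.60, both called).

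RGS proteins, which end G protein signals, showed 4 higher and 3 lower of 14 tested in cold DPP4+ cells, a share near the 43.8% of all genes called. Rgs16 averaged 38.5 ± 6.02 at 6 °C and 177 ± 18.6 at 22 °C in DPP4+ cells, against 1738 ± 336 and 1464 ± 431 in DPP4- cells (log2 difference -2.18, SE 0.19, adjusted p = 1.58e-08 for cold in DPP4+ cells). Rgs3 fell (log2 difference -1.77), and Rgs10 and Rgs6 rose by 0.95 and 1.15 on the log2 scale. Of 11 kinases, arrestins and chaperones of receptors, 5 were higher and 2 lower in cold DPP4+ cells, beside 22.0% and 21.7% of all genes. The called genes included Arrb1, a beta-arrestin that takes receptors off the surface, by 0.66, Grk5 by 0.50, and Arrdc3 by 0.53 among the rises, and Grk3, a receptor kinase, among the falls (-2.28). In DPP4- cells Grk5 and Arrdc3 were higher, by 0.30 and 0.32. Of 4 makers of metabolite ligands, Cyp7b1, an oxysterol hydroxylase, fell in cold DPP4+ cells, 109 ± 23.7 at 6 °C and 1424 ± 185 at 22 °C (log2 difference -3.71, SE 0.17, adjusted p = 2.06e-13), and stood at 109 and 106 in DPP4- cells at 6 °C and 22 °C. Medians of the log2 difference in cold DPP4+ cells were -0.10 over the partners of adhesion receptors, 0.05 over alpha subunits, -0.05 over beta and gamma subunits, -0.01 over RGS proteins, 0.15 over kinases, arrestins and chaperones, and 0.0006 over all genes tested.

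Among all tested genes with a symbol, the 5 most like Gpr176 by Pearson r over the 20 libraries were Wisp1 (0.98), Myh9 (0.98), Actn4 (0.97), Rad50 (0.97) and Mark1 (0.97). Wisp1 averaged 65.7 and 407 normalized counts in DPP4+ cells at 6 °C and 22 °C and 50.7 and 62.7 in DPP4- cells. Of the other receptors, Gpr162 (0.88) and Gpr89 (0.86) were among the closest. The libraries fall into 4 groups, 1 of which holds nearly all of the Gpr176 counts, and r is given as a description with no p.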

How the data were processed

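RNA-seq libraries of sorted PDGFRb+ cells, 5 per group, were compared. The authors deposited a signal, normalized counts per gene in which each library's gene counts were divided by 1 factor. The submitters' processing notes name DESeq2 1.6.3, featureCounts 1.4.6, HISAT2 2.0.1 and Trim Galore 0.4.1, and as builds mm10 and GRCm38. Annotation and strand are not given in the sources used here. Of the values, 100% were whole multiples of 1 step per library (tolerance 0.1 read), which recovered the whole reads; genes with no symbol took 0.061 to 0.0824% of them.

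Genes with a mean of at least 5, 14146 in all, entered a limma 3.58.1 fit of log2(value + 1) in R 4.3.3 (4 group means, trend and robust moderation, 16 residual degrees of freedom), two-sided, with Benjamini-Hochberg adjustment within each of 5 contrasts at 0.05. Folds of single genes are ratios of means. Counts of differences of at least 2-fold instead use a fitted log2 difference of at least 1 in size. Counts per kilobase use GENCODE vM21 exon lengths. Fits on recovered reads used edgeR 4.0.16 and DESeq2 1.42.0. The script was tested on simulated data. The members and lists were chosen with earlier results of these data known. Values in every library are given for Gpr176 and, in each contrast, for the called receptors with the 6 largest rises and falls whose higher group averaged at least 50; Adgrb1 and Gpr39 are named below that level. Of the 48 receptors, 2 are not reported here by name, though counts include them. Up to 4 genes per list with the smallest p are named; Gnaz, Gng8 and the Gng4 cold effects are named outside that rule, with their values seen. No label ties same-numbered libraries to a shared source, so the fit has no block. Still, 9 of 20 same-number pairs correlated above 0.1, and fits with a block are given in the closing section.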

Additional observations from a re-analysis of the deposited data

Results flagged for a closer look

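In 13 of 192 groups of 5 libraries, 1 library stood far from the other 4 by Dixon's criterion, and chance gives about 1 in 20. DPP4+ cells at 6 °C held 4 of them: Gpr108 at 429, Adgrl2 at 316 and Gpr173 at 31.4 normalized counts in replicate 5, and Gpr4 at 5.83 in replicate 3. DPP4+ cells at 22 °C held 2, both in replicate 3, Adgrf5 at 86.1 and Adgrg1 at 43.4. DPP4- cells at 6 °C held 4: Gpr179 at 20.1 in replicate 1, Adgrb2 at 19.1 in replicate 2, and Gpr155 at 148 and Gprc5b at 1402 in replicate 5. DPP4- cells at 22 °C held 3: Adgrg6 at 58.3 in replicate 4, Gpr157 at 20.6 in replicate 5 and Adgrl1 at 338 in replicate 1.

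The cold effect differed between DPP4+ and DPP4- cells for 18 receptors by the limma test of the difference. Of these, 17 are named here. It was higher in DPP4+ cells for Gpr35 (log2 difference 4.21), Adgrb1 (2.96), Gpr153 (2.19), Gprc5b (1.21), Gprc5a (1.10), Adgrd1 (0.92), Adgrf5 (0.87) and Gpr146 (0.36). It was lower for Gpr176 (-4.83), Gpr39 (-1.61), Gpr157 (-1.34), Gpr19 (-1.33), Gpr162 (-1.19), Adgre5 (-0.96), Adgrl1 (-0.72), Gpr89 (-0.71) and Adgra2 (-0.65). No explanation of these differences was tested.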

How the results depend on the processing

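Alternatives were other scalings (TMM, quantile, totals set equal), pseudocounts of 0.5 and 5, a minimum of 10 or none, array weights, edgeR and DESeq2 on recovered reads, a replicate block and leaving out each library. The count of receptors called by cold in DPP4- cells, 2, became 4 with totals set equal, 1 with array weights (Gprc5a lost, adjusted p = 0.0705, limma) and 6 with DESeq2. Over all genes the calls were 668 in the main fit, 1097 with totals set equal and 896 with DESeq2. On recovered reads edgeR called 6727 genes and 27 receptors for cold in DPP4+ cells, 609 and 3 in DPP4- cells, 4404 and 21 for the difference, and 10417 and 36, and 10319 and 32, between populations at 22 °C and 6 °C. Leaving out 1 library gave 24 to 26 calls for cold in DPP4+ cells, 2 to 5 in DPP4- cells, 15 to 19 for the difference, and 30 to 36 and 29 to 33 between populations at 22 °C and 6 °C. With totals set equal, called population differences whose sign turned were 0.09 for Gpr63, 0.12 for Gpr146, 0.13 for Gpr135, 0.15 for Gpr155, 0.16 for Gpr180, 0.21 for Gpr27 and 0.28 for Gpr108 at 22 °C, and 0.0035 for Gpr63, 0.10 for Gpr180, 0.10 for Adgra2 and 0.12 for Adgrl1 at 6 °C. Of the values of the receptors chosen by size under other settings, 1660 kept direction and side of the threshold, 35 lost the call and 6 changed sign. Same-numbered libraries correlated at -0.26 to 0.42, 9 of 20 pairs over 0.1 and 10 of 20 best with their own number, a hint from the data that some same-numbered libraries share variation. The value of 0.42 was between replicate 1 of DPP4+ cells at 6 °C and at 22 °C. Between populations within a temperature the highest was 0.23, for replicate 5 at 22 °C. A replicate block on the number gave 25, 2, 18, 33 and 32 calls, and one on temperature and number gave 18, 34 and 29 for the difference and for the populations at 22 °C and 6 °C. The block on both ended the calls of Gpr27 and Adgrl1 at 22 °C and of Gpr63, Gpr62 and Adgrl1 at 6 °C (adjusted p = 0.0518 to 0.0707, limma). The causes were not tested. Low counts limit receptors such as Adgrl3, Gpr179, Gpr3 and Gpr182.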

Other observations

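Of the 57 receptors of the same symbols below the minimum, 29 had a mean of at least 1 normalized count and 2 had no read in any library. Gpr3, a constitutively active Gs-coupled receptor that cold induces in brown fat of mice, was within the set at low counts. It averaged 6.46 ± 1.72 in DPP4+ cells at 6 °C and 3.11 ± 1.13 at 22 °C, with 7.09 ± 4.85 and 7.74 ± 3.92 in DPP4- cells at 6 °C and 22 °C (SD, n = 5 each). The DPP4+ temperatures did not overlap, and the log2 difference of 0.87 missed the threshold (adjusted p = 0.164, limma). Gpr161, a cilium receptor that restrains Hedgehog signals, was called in 0 of the 5 contrasts of the main fit, with means of 106, 123, 119 and 132 in DPP4+ 6 °C, DPP4+ 22 °C, DPP4- 6 °C and DPP4- 22 °C. With totals set equal it was called higher in DPP4+ cells at 22 °C (0.51, adjusted p = 0.000269, limma) and at 6 °C (0.29, adjusted p = 0.0264, limma).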
